A study of Homo sapiens with 18 samples.

Results

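ABCB1, ABCB4, ABCB6, ABCB8, ABCB9, ABCB10 and ABCG2 are ATP-binding cassette (ABC) transporters, and their RNA was followed in neuroblastoma cells that overexpress another member of the superfamily, ABCC1. They were chosen by gene symbol, and they are 7 of the 57905 Ensembl genes counted in each library. BE(2)-m17 is an established human neuroblastoma cell line. RNA was sequenced in 3 experiments of 6 libraries each, 18 libraries in all, with 3 ABCC1-overexpressing and 3 empty vector control (Puro) libraries per experiment. The cells of both groups carried an APP transgene in a hygromycin vector, so the controls were themselves modified cells. The ABCC1-overexpressing cells had codon-optimized ABCC1 in a puromycin vector, and the controls had that vector without an insert. Both vectors were inserted with the Sleeping Beauty transposase and stable cells were selected with antibiotics. The study names no single-cell cloning step. Cells were grown on uncoated wells and lysed on day 4. The study repeated its first experiment with cryopreserved cells and with newly transfected cells, and the labels number the experiments without saying which repeat is which.

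ABC transporters move their substrates across membranes with the energy of ATP. ABCB1 (P-glycoprotein, MDR1) and ABCG2 (BCRP) sit in the plasma membrane, where they expel many unrelated drugs, and both are best known from the blood-brain barrier, the gut and drug-resistant tumours. ABCB4 (MDR3) is the closest relative of ABCB1 and moves phosphatidylcholine into bile in hepatocytes. ABCB6, ABCB8, ABCB9 and ABCB10 each join another such protein to make a working transporter. ABCB8 and ABCB10 lie in the inner mitochondrial membrane and are linked to iron and heme handling, and ABCB6 is known as a porphyrin transporter that also carries the Langereis blood group. ABCB9 (TAPL) moves peptides into lysosomes. The question put to the data was whether the RNA of any of these transporters differed between ABCC1-overexpressing and control cells, and at what level each was present in the controls.

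Assigned read pairs per library came to between 27433393 and 57937653 in the first experiment, 19577853 and 30996228 in the second, and 8866994 and 13332413 in the third. Exogenous ABCC1 separated the groups in every experiment, with at least 51035 counts in any ABCC1 library and at most 15 in any control library. The 9 adrenergic neuroblastoma markers all had counts in every group, with summed levels of 6637 to 12930 CPM (counts scaled to the library size after TMM normalization). Markers of endothelial cells, leukocytes, and liver or gut summed to 0.868 CPM or less per list in each library of the first experiment. In the later experiments these same lists summed to between 2.75 and 95.7 CPM. Olfactory receptor genes, which neuroblastoma cells are taken not to use, were higher there too. The 350 olfactory receptor genes had 0.00389 to 0.00569 CPM per kilobase of exon in the first experiment, against 0.143 to 0.677 in the second and 1.17 to 1.68 in the third. In the second experiment the 3 ABCC1 libraries, at 0.143, 0.347 and 0.440 CPM per kilobase, were all below the 3 control libraries, at 0.677, 0.498 and 0.601. This background is set beside the transporters in the later experiments. By the study's methods the first experiment differed from the later ones in library kit and instrument, while the labels name 2 different kits for it. Levels were not tested between experiments.

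In the control cells, the order of the transporters by level per length ran from ABCB10 down to ABCB4. Levels are CPM per kilobase of exon that no other gene shares, because reads over shared bases were assigned to no gene. In the first experiment ABCB10 had 9.66 ± 0.164 CPM per kilobase (SD, n = 3), followed by ABCB6 with 2.44 ± 0.18, ABCB9 with 1.55 ± 0.0456, ABCB8 with 1.08 ± 0.1002 and ABCB1 with 1.01 ± 0.124. ABCG2, at 0.0290 ± 0.0202, and ABCB4, at 0.0126 ± 0.0105, were far lower. The ranges of ABCB8 and ABCB1 overlapped, as did those of ABCG2 and ABCB4, and every other pair of neighbours was apart. ABCB10 was above 68.3% of the genes tested and ABCB1 above 28.1%. In the second and the third experiments ABCB10 again came first and ABCB9 came second, with 7.77 ± 0.341 and 2.34 ± 0.511 CPM per kilobase in the second and 7.81 ± 1.81 and 3.14 ± 0.402 in the third. The other 5 transporters lay between 0.815 and 1.45 in the second experiment and between 1.92 and 2.54 in the third, and among these 5 neighbours in the order overlapped, except ABCB1 and ABCG2 in the third. ABCB10 was apart from ABCB9 in both experiments, and ABCB9 was apart from ABCB1 in the second and overlapped it in the third. The background of the control libraries, on the same scale, was 0.498 to 0.677 in the second and 1.51 to 1.68 in the third experiment, close to the lowest of these levels. ABCB6 loses 54.5% of its exon bases to ATG9A, and on its full exon length its level in the first experiment was 1.11 CPM per kilobase in place of 2.44.

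**Figure D1:**
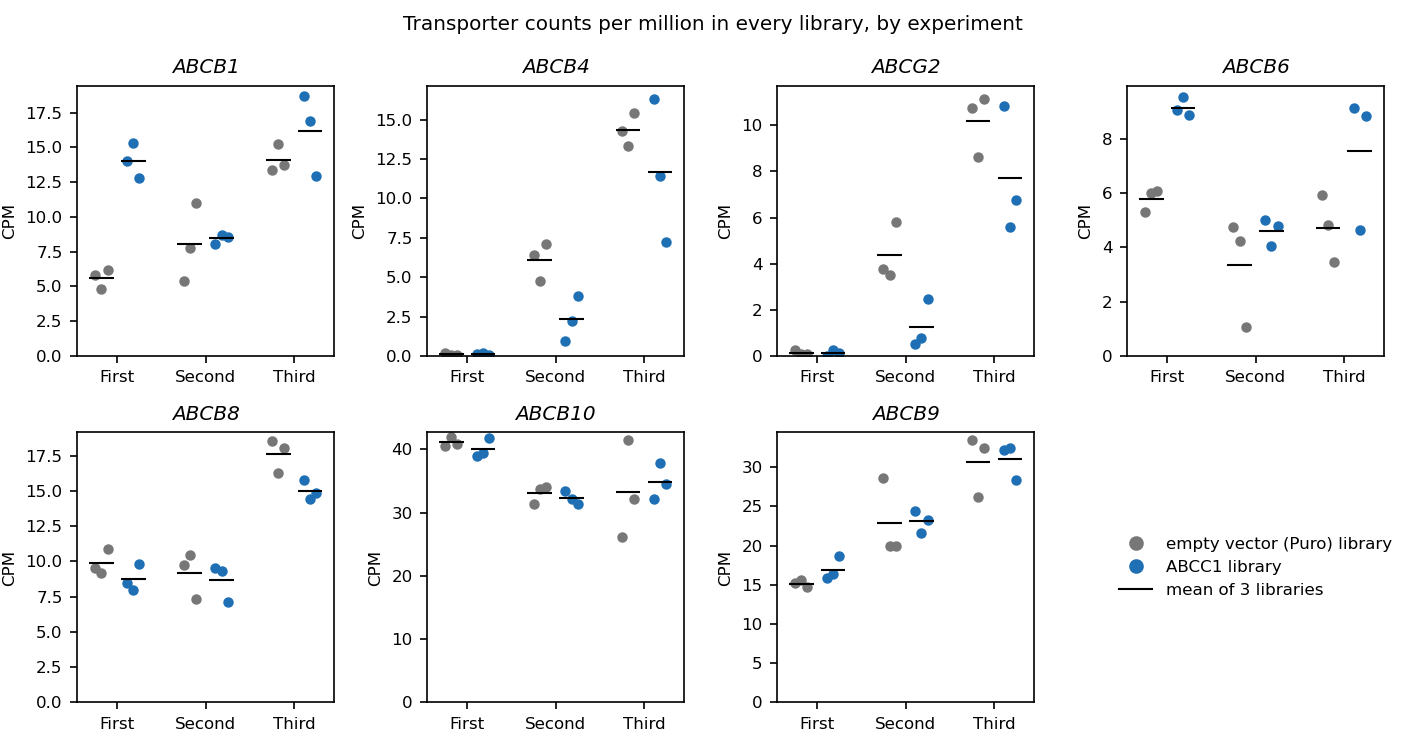
CPM of each transporter (y axis, linear from 0) in every library of the 3 experiments (x axis). Grey points are empty vector libraries, blue points ABCC1 libraries, and the bar is the mean of 3 libraries. The groups do not overlap for ABCB1, ABCB6 and ABCB9 in the first experiment, for ABCB4 and ABCG2 in the second and for ABCB8 in the third, as is so, in either direction, for 50.4%, 29.8% and 19.5% of the genes tested.

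ABCB1 was the transporter with the largest difference in the first experiment, 2.48-fold higher in ABCC1-overexpressing cells. The control libraries had 5.79, 4.85 and 6.19 CPM (252, 132 and 195 counts), and the ABCC1 libraries had 14.02, 15.3 and 12.8 CPM (793, 493 and 741 counts). Every ABCC1 library was above every control library. The means were 5.61 ± 0.688 and 14.03 ± 1.25 CPM (SD, n = 3). The log2 fold change (log2FC) was 1.31 with a standard error of 0.10, and edgeR's quasi-likelihood test gave an adjusted p of 4.56e-06. The 95% interval of the fold ran from 2.12 to 2.89. Background reads would account for at most 0.652% of the counts of ABCB1 in any library of the first experiment.

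ABCB1 did not stand apart in the second or the third experiment. In the second, the control libraries had 5.39, 7.76 and 10.98 CPM and the ABCC1 libraries had 8.06, 8.70 and 8.58 CPM. The ABCC1 libraries lay inside the range of the controls (log2FC 0.07, SE 0.25, adjusted p = 0.888). In the third, the control libraries had 13.4, 15.2 and 13.8 CPM and the ABCC1 libraries had 18.7, 16.9 and 12.96 CPM, and the groups overlapped (log2FC 0.20, SE 0.18, adjusted p = 0.672). Reads at the level of the olfactory receptor genes would make up 9.84% to 69.6% of the ABCB1 counts in the second experiment and 39.7% to 68.7% in the third. With that share taken off, the means were 4.76 CPM in control and 6.73 CPM in ABCC1 libraries of the second experiment, and 5.17 and 9.09 CPM in the third. Tested on counts with the background subtracted, the log2FC was 0.26 (adjusted p = 0.821) and 0.67 (adjusted p = 0.320).

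The ABCB1 gene spans chromosome 7, 87133175 to 87342611, on the minus strand of GRCh37, the build of the counts. Sequence upstream of the start nearest to most of its exons is shown because this was the transporter with the largest difference. The 250 bases before that start, from RefSeq on GRCh38.p14 at chr7:87600885-87601134 on the minus strand, are given 5′ to 3′. Capitals mark the letters CCAAT or their reverse complement and GCGTGGG, the core bound by EGR1.
ABCB1: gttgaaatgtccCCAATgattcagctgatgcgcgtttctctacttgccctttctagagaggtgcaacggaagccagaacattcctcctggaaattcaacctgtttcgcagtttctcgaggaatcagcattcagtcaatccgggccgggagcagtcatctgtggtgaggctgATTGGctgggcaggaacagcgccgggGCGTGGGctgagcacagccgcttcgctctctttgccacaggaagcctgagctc
The CCAAT letters began 238 and 79 bases before the start and GCGTGGG began 53 bases before it. Searched on both strands, CCAAT is held by 34.6% and GCGTGGG by 6.98% of the 35116 promoter windows in RefSeq's set, each running from 250 bases before to 50 bases after a start. The letters GCGTG, the core of the dioxin response element, lie inside the GCGTGGG match and are held by 36.5%. ABCB1 has another start further upstream, and counts per gene do not tell which start was used.

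ABCG2 and ABCB4, the other plasma membrane transporters, were barely present in the first experiment. ABCG2 had 11, 2 and 3 counts in the control libraries and 0, 8 and 7 in the ABCC1 libraries. ABCB4 had 8, 1 and 2 counts in the control libraries and 6, 6 and 3 in the ABCC1 libraries. Both were below the filter on low counts and were not tested. The library with a count of 0 allows up to 3 counts of ABCG2. Without that filter edgeR called neither gene.

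Both genes were, in the second experiment, lower in the ABCC1 libraries, without passing the test. ABCG2 had 3.76, 3.51 and 5.83 CPM in the control libraries and 0.497, 0.779 and 2.48 CPM in the ABCC1 libraries. ABCB4 had 6.41, 4.78 and 7.13 CPM in the control libraries and 0.955, 2.25 and 3.78 CPM in the ABCC1 libraries. All ABCC1 libraries were below all control libraries for both genes. Groups that did not overlap, in either direction, were found for 29.8% of the genes tested. The log2FC was −1.77 (SE 0.50, adjusted p = 0.0614) for ABCG2 and −1.38 (SE 0.40, adjusted p = 0.0679) for ABCB4. DESeq2 gave adjusted p-values of 0.0294 and 0.0406 for ABCG2 and ABCB4, and limma-voom 0.0215 and 0.0258. Without ABCC1 replicate 3, the values were −2.74 (adjusted p = 0.00998) for ABCG2 and −1.91 (adjusted p = 0.0190) for ABCB4.

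Both genes lay near the olfactory receptor background in the second and the third experiments. In the second, ABCB4 had between 0.864 and 1.58 times the background level per kilobase, and ABCG2 between 0.464 and 2.00 times. In the third, ABCB4 had between 0.829 and 1.49 times and ABCG2 between 0.953 and 1.53 times. The background itself moved with the groups in the second experiment, as given above, and so did the summed leukocyte markers, at 2.75 to 8.74 CPM in the ABCC1 libraries and 11.3 to 14.2 CPM in the controls. With the background of each library as a covariate, the log2FC in the second experiment was −0.70 (adjusted p = 0.893) for ABCG2 and −0.33 (adjusted p = 0.948) for ABCB4. The background of the groups did not overlap in the second or the third experiment, so such a fit cannot separate group from background. With background counts subtracted, the log2FC in the second experiment was −3.71 (adjusted p = 0.270) for ABCG2 and −3.45 (adjusted p = 0.280) for ABCB4. These values came from counts at or below the background in some libraries. In the third experiment ABCG2 had 10.7, 8.62 and 11.2 CPM in the control and 10.9, 5.59 and 6.77 CPM in the ABCC1 libraries (log2FC −0.39, SE 0.23, adjusted p = 0.441). ABCB4 had 14.3, 13.3 and 15.4 CPM in the control and 16.3, 11.4 and 7.26 CPM in the ABCC1 libraries (log2FC −0.30, SE 0.20, adjusted p = 0.521). The groups overlapped for both genes there. The background of the ABCC1 libraries, at 1.17 to 1.46 CPM per kilobase, was below that of the controls, at 1.51 to 1.68, in the third experiment too, and with it as a covariate the directions turned, to 0.42 (adjusted p = 0.804) for ABCG2 and 0.51 (adjusted p = 0.658) for ABCB4. With background counts subtracted the values there were −0.66 (adjusted p = 0.834) and 0.11 (adjusted p = 0.977). ABCB4 shares 1.5% of the 50-base stretches of its transcripts with ABCB1, and the genes lie 23424 bp apart on chromosome 7.

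**Figure D2:**
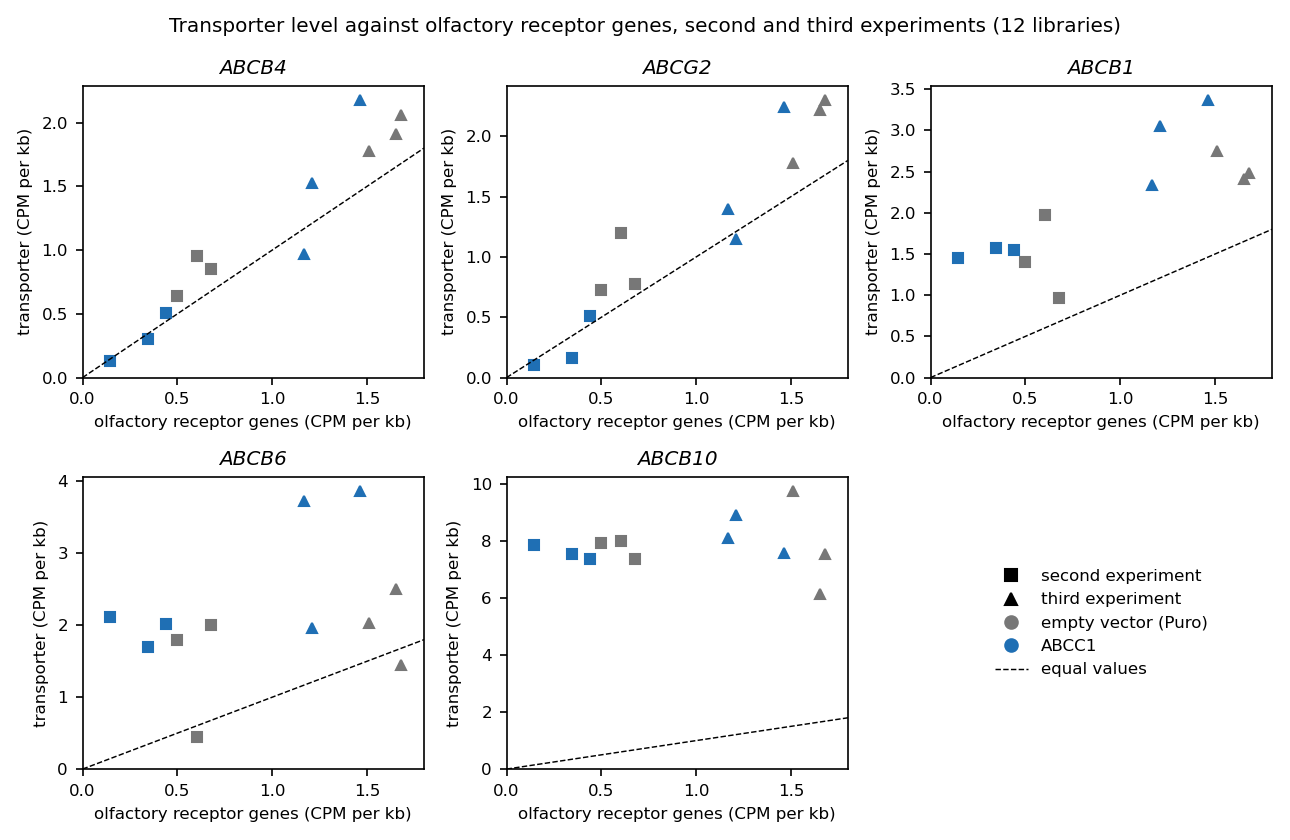
Level of 5 transporters (y axis, CPM per kb of unshared exon) against the level of 350 olfactory receptor genes in the same library (x axis, CPM per kb), for the 12 libraries of the second (squares) and the third (triangles) experiments. ABCB4 and ABCG2 follow the dashed line of equal values, with 0.464 to 2.00 times the background, and ABCB10 lies at least 3.72 times above it in every library.

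ABCB6, the porphyrin transporter, was 1.59-fold higher in ABCC1-overexpressing cells in the first experiment. The control libraries had 5.29, 5.99 and 6.06 CPM (230, 163 and 191 counts), and the ABCC1 libraries had 9.04, 9.52 and 8.88 CPM (511, 307 and 515 counts). The groups did not overlap. The means were 5.78 ± 0.425 and 9.14 ± 0.332 CPM (SD, n = 3), and the log2FC was 0.67 with a standard error of 0.08 (edgeR's quasi-likelihood test, adjusted p = 0.000155). The 95% interval of the fold ran from 1.39 to 1.81. With the spread estimated over all 18 libraries, the value was 0.66 and the adjusted p 0.163.

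In the repeat experiments the estimates for ABCB6 were 0.45 and 0.67, with wider errors. In the second experiment the control libraries had 4.73, 4.25 and 1.06 CPM and the ABCC1 libraries had 5.004, 4.03 and 4.78 CPM. Control replicate 3, with 22 counts, was far below the other controls, and without it the log2FC was 0.05 in place of 0.45 (SE 0.41, adjusted p = 0.532). In the third experiment the control libraries had 5.92, 4.81 and 3.44 CPM and the ABCC1 libraries had 9.14, 4.64 and 8.83 CPM. ABCC1 replicate 2 lay among the controls and the other 2 were above them (log2FC 0.67, SE 0.28, adjusted p = 0.207). Background reads would make up 6.76% to 61.7% of the ABCB6 counts in the ABCC1 libraries of these experiments, and 27.7% to 134% in the controls, where a value above all of the counts means fewer counts than the background gives. With background counts subtracted, the log2FC of ABCB6 was 0.62 (adjusted p = 0.808) in the second and 1.87 (adjusted p = 0.318) in the third experiment.

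The ABCB6 gene spans chromosome 2, 220074490 to 220083712, on the minus strand of GRCh37. It is shown with its upstream sequence as the other transporter that rose. The 250 bases before its start, from RefSeq on GRCh38.p14 at chr2:219218959-219219208 on the minus strand, are given 5′ to 3′. Capitals mark CCAAT, the GC box GGGCGG or its reverse complement, and the E-box CACGTG.
ABCB6: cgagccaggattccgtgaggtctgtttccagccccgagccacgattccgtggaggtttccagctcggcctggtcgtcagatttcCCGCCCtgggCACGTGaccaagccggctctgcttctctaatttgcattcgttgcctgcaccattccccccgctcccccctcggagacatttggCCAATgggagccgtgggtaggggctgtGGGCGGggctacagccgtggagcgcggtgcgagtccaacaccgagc
CCAAT began 73 bases before the start, the GC boxes began 166 and 46 bases before it, and the E-box 156 bases before it. GGGCGG is held by 45.0% of the 35116 windows and CACGTG by 7.26%. TGACNNNGC, the core of the antioxidant response element, began 152 bases before the start, overlapping the E-box, and is held by 13.3%. CCAAT was also found in the window of ABCB8 and in 1 window of ABCB9, and GCGTGGG in 1 window of ABCG2. ABCB6 shares 2837 exon bases with ATG9A on the same strand, and reads over them count for neither gene. ATG9A had a log2FC of −0.10 in the first experiment (adjusted p = 0.301).

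ABCB8 and ABCB10, the inner mitochondrial membrane transporters, did not pass the test in any experiment. In the first, ABCB10 had 40.6, 41.9 and 40.9 CPM in the control and 38.9, 39.5 and 41.8 CPM in the ABCC1 libraries, and the groups overlapped. Its fold was 0.976 with a 95% interval of 0.904 to 1.05, the narrowest of the 5 tested there (adjusted p = 0.609). Means of ABCB10 were 33.1 ± 1.45 and 32.3 ± 1.12 CPM in the second experiment and 33.3 ± 7.69 and 34.9 ± 2.85 CPM in the third (SD, n = 3). It was the transporter farthest above the background, at 10.9 to 55.1 times its level in the second and 3.72 to 7.37 times in the third experiment. The transcripts of ABCB10 share 4.19% of their 50-base stretches with other genes, mostly its own pseudogenes.

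ABCB8 had 9.54, 9.18 and 10.9 CPM in the control and 8.49, 7.97 and 9.79 CPM in the ABCC1 libraries of the first experiment. The groups overlapped, and the fold was 0.891 with an interval of 0.767 to 1.04 (adjusted p = 0.212). Without ABCC1 replicate 3, the log2FC moved from −0.17 to −0.25 and the adjusted p to 0.0217. In the third experiment the ABCC1 libraries of ABCB8, at 14.4 to 15.8 CPM, were all below the controls, at 16.2 to 18.6 CPM, and 19.5% of the genes tested had groups that did not overlap, in either direction (log2FC −0.23, SE 0.18, adjusted p = 0.589). ABCB8 had 1.18 to 1.39 times the background there. Its log2FC in the second experiment was −0.09 (SE 0.23). With background counts subtracted the direction turned in both, to 0.35 (adjusted p = 0.774) in the second and 0.03 (adjusted p = 0.988) in the third experiment. With the background as a covariate it did not turn, at −0.32 (adjusted p = 0.924) and −0.06 (adjusted p = 0.981).

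ABCB9, the lysosomal peptide transporter, had 15.2, 15.6 and 14.7 CPM in the control and 15.9, 16.3 and 18.7 CPM in the ABCC1 libraries of the first experiment. The ABCC1 libraries were all above the controls, and the fold was 1.12 with an interval of 1.00 to 1.26 (adjusted p = 0.109). The estimates in the later experiments were 0.02 (SE 0.17) and 0.01 (SE 0.16) on the log2 scale, with overlapping groups. Background reads would make up 5.72% to 29.5% of its counts in the second and 36.5% to 56.2% in the third experiment. ABCB9 shares 25.0% of its exon bases with OGFOD2, ARL6IP4 and a processed transcript on the opposite strand, and counting without strand, the default of a counting command that sets none, leaves those bases out.

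Set against all genes, 2 of the 5 transporters tested in the first experiment passed the test, where 37.6% of 16995 genes did and 17.9% passed as higher with ABCC1. Estimates at least as high as that of ABCB6 were found for 4.14% of genes. The groups did not overlap for 3 of the 5, against 50.4% of all genes tested. In the second experiment edgeR called none of the 7 transporters, where 1.7% of 34091 genes were called, 0.458% as lower with ABCC1. ABCB4 and ABCG2 had an unadjusted p under 0.05, and DESeq2 and limma-voom each called these 2. In the third experiment edgeR called none of the 7, where 2.8% of 36509 genes were called and 2.03% were called as higher, with ABCB6 alone at an unadjusted p under 0.05 (0.0185). An estimate at least as high as that of ABCB6 was found there for 3.79% of genes. DESeq2 and limma-voom called none there.

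**Figure D3:**
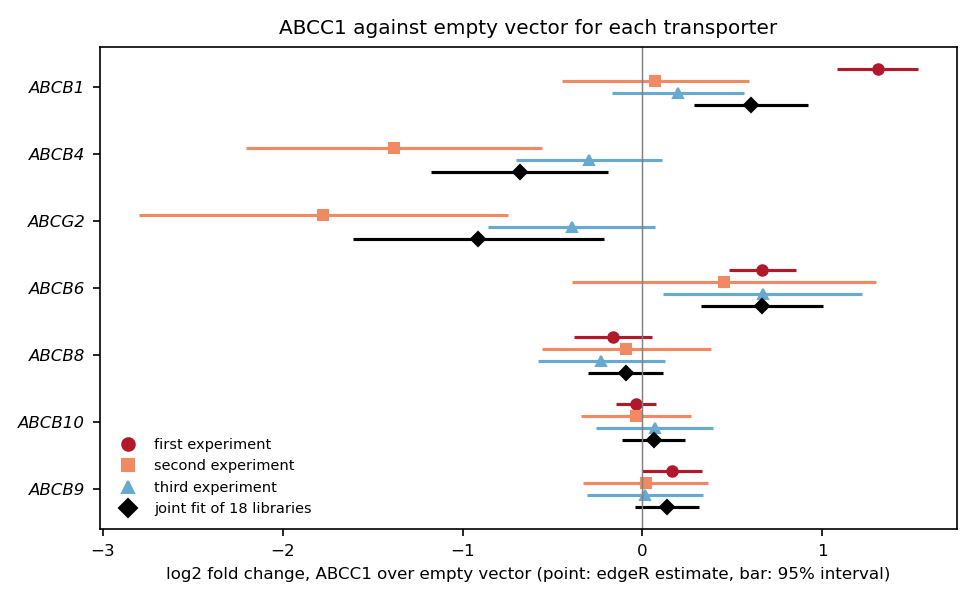
log2FC of each transporter, ABCC1 over empty vector (x axis), in each experiment and in the joint fit of 18 libraries. Points are edgeR estimates and bars 95% intervals, and ABCB4 and ABCG2 have no point for the first experiment because they were not tested there. The ABCB1 interval of the first experiment starts at 1.08, above its estimates of 0.07 and 0.20 in the others, while the 3 ABCB6 estimates lie between 0.45 and 0.67.

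In a joint fit of all 18 libraries with the experiment as a covariate, ABCB6 and ABCB1 were higher in ABCC1-overexpressing cells, 2 of the 7 transporters, where 12.4% of 46225 genes passed the test and 8.72% passed as higher. ABCB6 had a log2FC of 0.66 (SE 0.17, adjusted p = 0.00475) and ABCB1 of 0.60 (SE 0.16, adjusted p = 0.00796). With limma-voom and quality weights, ABCB1 had 1.08 (adjusted p = 3.78e-06) and ABCB6 0.75 (adjusted p = 3.15e-05). With RLE size factors the split of called genes was 2822 higher and 2812 lower, in place of 4033 and 1718, and the values were 0.57 (adjusted p = 0.0261) for ABCB6 and 0.52 (adjusted p = 0.0318) for ABCB1. The joint call of ABCB6 was lost with background counts subtracted (0.98, adjusted p = 0.236). That of ABCB1 was lost where at least 10 counts were required in every library (0.43, adjusted p = 0.0595). ABCG2 had a joint log2FC of −0.91 (SE 0.34, adjusted p = 0.0810) and ABCB4 of −0.68 (SE 0.24, adjusted p = 0.0590). Both passed without ABCC1 replicate 2 of the first experiment (adjusted p = 0.0346 and 0.0375) or ABCC1 replicate 1 of the third (0.0268 and 0.0122). ABCB4 also passed without control replicate 2 of the first (0.0403) or the third experiment (0.0434), with RLE size factors (0.0395) and with DESeq2 (0.0464), but not with limma-voom and quality weights (−0.35, adjusted p = 0.325) or with background counts subtracted (−1.03, adjusted p = 0.514). The joint values of ABCB8, ABCB9 and ABCB10 were −0.09, 0.13 and 0.06 on the log2 scale, and none of these 3 passed the test (adjusted p = 0.609, 0.352 and 0.699). With at least 10 counts required in every library, ABCB8 was lower (−0.28, adjusted p = 0.0203). ABCB1 moved down in that setting too, from 0.60 to 0.43. That filter kept 14773 genes with a median log2FC of −0.03, in place of 46225 and −0.16 in the main fit. Whether a change of scaling moved both values was not tested.

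ABCB1 differed between the experiments in its log2FC, as 1.19% of genes did by the test of that difference. Its log2FC was lower by 1.33 in the second and by 1.14 in the third experiment than in the first (adjusted p = 0.00178 in edgeR for both differences at once). With background counts subtracted in the later experiments, the difference between second and first was −1.11 and the adjusted p 0.615. For ABCB6 the differences were −0.30 and −0.02 (adjusted p = 0.989). For ABCG2 and ABCB4 they were −1.34 and −1.44 between second and first, with adjusted p-values of 0.545 and 0.422. Without ABCC1 replicate 3 of the second experiment these were −2.34 (adjusted p = 0.0122) and −2.00 (adjusted p = 0.0236). The experiments also differed in depth and background and, by the study's methods, the first from the later ones in kit and instrument, and these cannot be told apart from the cells used.

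Typical variation between replicates, beyond counting noise, was 5.67% of a gene's level in the first experiment, 35.3% in the second and 19.7% in the third. The median log2FC of all genes was 0.01, −0.19 and −0.09 in the 3 experiments, and RLE size factors moved it in the second experiment to −0.08. Relative to the median of all genes, ABCG2 in the second experiment was at −1.59 with TMM and −1.61 with RLE, and ABCB4 at −1.19 and −1.21. Less RNA of a gene per cell and fewer cells that carry it cannot be told apart in bulk RNA.

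Among the other ABCB genes, TAP2, which brings peptides into the endoplasmic reticulum for antigen presentation, rose in the first experiment, from 6.54 to 9.32 CPM (log2FC 0.52, adjusted p = 0.00173). It was 1 of 2 genes of the group tested there, in an experiment where 37.6% of all genes were called. TAP1 fell in the third experiment by 0.76 on the log2 scale (adjusted p = 0.0337), from 13.9 to 8.19 CPM, where the background was lower in every ABCC1 library. In the first experiment TAP1 had 1, 0 and 0 counts in the control and 9, 4 and 9 in the ABCC1 libraries, below the filter. Of the 5 other ABCB genes, edgeR called none in the second experiment, and 2 had an unadjusted p under 0.05. ABCG1, a cholesterol exporter, fell by 0.32 in the first experiment (adjusted p = 0.000446), 1 of 2 genes tested of the other ABCG genes. Of these 4 genes, edgeR called none in the second or the third experiment, and 1 had an unadjusted p under 0.05 in each.

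Of the 7 ABCA genes tested in the first experiment, 4 were called, where 37.6% of all genes were. The lipid transporters ABCA1 (log2FC 0.72) and ABCA2 (0.51) rose, and ABCA4 (−1.03) and ABCA5 (−0.45) fell. Among 8 genes of the ABCD, ABCE and ABCF families, 4 were called in the first experiment. The peroxisomal fatty acid transporter ABCD2 rose in the first (1.01, adjusted p = 7.80e-06) and second experiments (0.71, adjusted p = 0.0309), and ABCE1 rose in the first (0.25). ABCD3, its relative in the same membrane, fell in the first (−0.75, adjusted p = 2.38e-06), as did ABCF2 (−0.16). In the second and the third experiments edgeR called none of the 12 ABCA genes, with 5 and 2 at an unadjusted p under 0.05. In the third it called none of the 8 others, with 2 under 0.05.

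The genes known to regulate ABCB1 or ABCG2 split in direction. Of 19 tested in the first experiment, 4 rose and 7 fell, where 17.9% of all genes rose and 19.7% fell. EGR1, an immediate early transcription factor, had 8302, 4509 and 4282 counts in the control and 17133, 9281 and 21165 in the ABCC1 libraries. EGR1 rose in the first experiment from 164 to 319 CPM (log2FC 0.96, adjusted p = 0.000476), in the second from 33.5 to 92.9 CPM (1.47, adjusted p = 0.00137) and in the third from 39.4 to 195 CPM (2.31, adjusted p = 8.80e-17). It was the only gene of this list called in all 3 experiments. NFYA, a subunit of the factor NF-Y that binds CCAAT, rose in the second (0.69, adjusted p = 0.0315) and the third experiment (0.81, adjusted p = 0.00152) and had a log2FC of −0.06 in the first (adjusted p = 0.394). NFE2L2, the oxidative stress regulator NRF2, fell in the first experiment from 170 to 141 CPM (−0.27, adjusted p = 0.000330), and EPAS1, a hypoxia factor, fell by 1.16 from 1.18 to 0.523 CPM (adjusted p = 0.00160). The median of the list was −0.02 in the first experiment beside 0.01 for all genes, 0.24 beside −0.19 in the second and 0.13 beside −0.09 in the third.

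Of the xenosensor targets, genes that drug and dioxin receptors or NRF2 switch on, 7 of 13 passed the filter on low counts in the first experiment. CYP1A2 passed it only through the ABCC1 libraries and is left out of the count. Of the other 6, 5 were called higher, where 17.9% of all genes tested were. NQO1, a quinone reductase, rose from 7.44 to 13.2 CPM (log2FC 0.83, adjusted p = 9.99e-06) and AHRR, the repressor of the dioxin receptor, from 5.93 to 11.3 CPM (0.93, adjusted p = 1.27e-05). TIPARP, another dioxin receptor target, rose from 18.6 to 22.3 CPM (0.26, adjusted p = 0.00639). CYP1A2 had 1, 0 and 0 counts in the control and 19, 19 and 28 in the ABCC1 libraries, given here as counts alone. Of the 13, edgeR called none in the second experiment, with 3 at an unadjusted p under 0.05, and the median was −0.32 beside −0.19. In the third 1 of the 13 fell, where 0.767% of all genes did. The median there was −0.09 as for all genes, and 3 of the 13 had an unadjusted p under 0.05.

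Of 19 genes of heme and iron-sulfur metabolism, the setting of ABCB6, ABCB8 and ABCB10, 3 rose and 2 fell in the first experiment, where 37.6% of all genes were called. The heme synthesis enzymes PPOX (0.41, adjusted p = 0.00120), UROD (0.27, adjusted p = 0.00123) and the heme exporter FLVCR1 (0.19, adjusted p = 0.00869) rose, and the synthesis enzyme UROS fell (−0.19, adjusted p = 0.00599). The other that fell, TMEM14C (−0.13, adjusted p = 0.0417), was named after its value was seen. FLVCR1 also rose in the second experiment (0.57, adjusted p = 0.0498). Of the 19, edgeR called none in the third experiment, and 1 had an unadjusted p under 0.05. Of 9 lysosomal membrane genes, LAMP2 (−0.15, adjusted p = 0.0161) and NPC1 (−0.19, adjusted p = 0.0243) fell in the first experiment, where 19.7% of all genes fell. None of the 9 was called by edgeR in the second, where 1 had an unadjusted p under 0.05, or in the third, where 0 had.

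**Figure D4:**
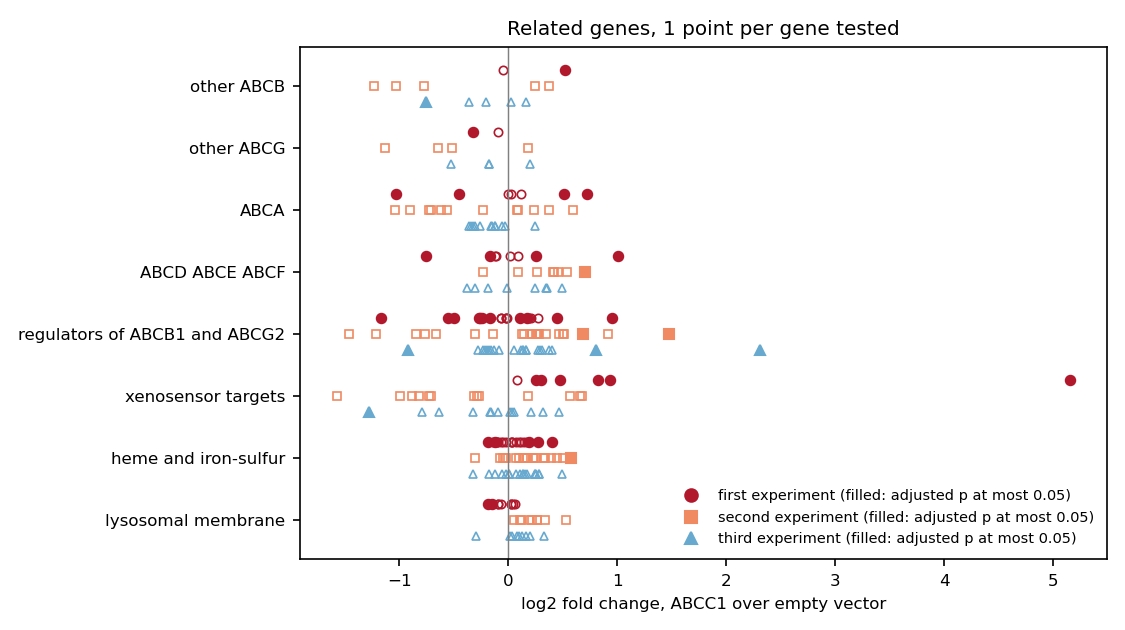
log2FC, ABCC1 over empty vector (x axis), of each tested gene of 8 lists of related genes (y axis). Circles are the first, squares the second and triangles the third experiment, and filled symbols have an adjusted p of at most 0.05. The filled circle near 5 is CYP1A2, whose fitted value rests on 1 count in the 3 control libraries and is not used in the text. EGR1 is the filled symbol farthest to the right among the regulators in each experiment.

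Among the marker lists, 2 of 9 adrenergic neuroblastoma markers rose and 5 fell in the first experiment, where 37.6% of all genes were called, with ISL1 (−0.56, adjusted p = 1.93e-06) and DBH (−0.83, adjusted p = 1.89e-05) showing the smallest p-values. TH rose (0.63, adjusted p = 0.0138) and PHOX2A (−0.68, adjusted p = 0.0327) and DBH (−0.63, adjusted p = 0.0454) fell in the third, where 2.03% of all genes rose and 0.767% fell. Of 6 mesenchymal markers tested in the first experiment, 2 rose, among them SNAI2 (0.94, adjusted p = 8.25e-06), and 2 fell, among them FN1 (−0.89, adjusted p = 2.07e-05). A single gene each of the endothelial, leukocyte, and liver or gut lists had enough counts for a test in the first experiment. The leukocyte gene, CD14, passed the filter on low counts only through the controls. It had 17, 10 and 10 counts there and 6, 4 and 10 in the ABCC1 libraries, given here as counts alone. The summed endothelial markers of the second experiment were 10.0 to 21.1 CPM with ABCC1 and 28.7 to 41.4 CPM in the controls, and 1 of 5 was lower by the test, VWF (−1.01, adjusted p = 0.0435), where 0.458% of all genes were. The liver and gut markers summed to 6.76 to 13.97 CPM with ABCC1 and 13.6 to 18.1 CPM in the controls. Leukocyte markers of the third experiment summed to 20.3 to 25.7 CPM with ABCC1 and 35.1 to 39.0 CPM in the controls, and 2 of 6 fell, where 0.767% of all genes did, among them PTPRC (−0.73, adjusted p = 0.0193). Of these 6, 0 were above 2 times the background in either group there, and the background was lower in every ABCC1 library. The part of these markers in the values of ABCB4 and ABCG2 was not tested.

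By position, RUNDC3B, which covers ABCB1 on the opposite strand without a shared exon base, had a log2FC of 0.30 in the first experiment (adjusted p = 0.169). CROT, 1902 bp from ABCB4, rose by 0.34 (adjusted p = 0.0468). Of 16 genes within 100 kb of ABCB6, 12 were tested in the first experiment and 4 rose, where 17.9% of all genes did. These were SLC23A3 (1.19, adjusted p = 6.73e-05), RETREG2 (0.33, adjusted p = 0.000136), ANKZF1 (0.25, adjusted p = 0.00601) and DNAJB2 (0.23, adjusted p = 0.00344). ZFAND2B, 117 bp from ABCB6 on the opposite strand, had an adjusted p of 0.967. Near ABCB8, 2 of 9 genes tested rose in the first experiment, ATG9B (0.50) and SLC4A2 (0.18). Near ABCB10 1 of 5 did, TAF5L (0.12), near ABCG2 1 of 2, PPM1K (0.21), and near ABCB9 0 of 6. TAF5L also rose in the third experiment (0.60, adjusted p = 0.0265), as did VPS37B near ABCB9 (0.78, adjusted p = 0.00108). These were 1 of 8 tested near ABCB10 and 1 of 7 near ABCB9, where 2.03% of all genes rose.

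The genes most like ABCB6, ABCB1 and ABCB4, which had the smallest p in the joint fit, were found by the Pearson correlation of log2 CPM centred within each experiment, over 18 libraries. For ABCB1 the closest of 14772 genes was DCN, a matrix proteoglycan, at 0.889, followed by TGIF1, a repressor of TGF-beta signalling, at 0.832 and an uncharacterized gene at 0.831. For ABCB6 the closest genes were TAF8 at 0.895, TK2 at 0.869 and MICAL3 at 0.868. For ABCB4 they were CELF2 at 0.958, COL6A5 at 0.944 and STRIP2 at 0.939 among 14773 genes. The points of these correlations share kit, depth and background within an experiment, and the values are descriptions of these libraries.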

How the data were processed

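The deposited values are raw read-pair counts per gene for 18 libraries. According to the labels and methods of the study, the authors aligned reads with STAR 2.7.3a to GRCh37 with the vector sequences added and counted exon reads with featureCounts (Subread 2.0.0, Ensembl annotation, no strand option in the command of the file headers, so the unstranded default). Reads over bases shared by genes were thus not assigned. The 92 spike-ins and 6 vector sequences were left out of library sizes and tests. No column of per-sample values was left unused.

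Counts were tested in R 4.3.3 with edgeR 4.0.16 (filterByExpr with a minimum count of 10, TMM, robust quasi-likelihood test) within each experiment, jointly with the experiment as covariate, and for the interaction. A gene was called at an adjusted p (Benjamini-Hochberg over all genes tested) of at most 0.05. DESeq2 1.42.0 and limma-voom (limma 3.58.1) were alternatives. The fits were checked on simulated data. Background was read from 350 olfactory receptor genes (374.3 kb of exon), and its subtraction and the use of all exon bases were alternatives chosen after seeing the data. Intervals are 95%, and a count of 0 allows up to 3 counts, for counting error only. The study's methods describe weekly platings of each line, and the sources used here do not say that a replicate number marks a week. P-values measure the spread between libraries of the same cell lines.

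The 7 transporters and the gene lists were chosen with earlier results of these data known. Named from each list were up to 4 called genes with the smallest adjusted p per experiment, genes within 100 kb of a transporter, and for the 3 transporters with the smallest joint p the 3 most correlated genes with at least 10 counts in every library. Some of these genes are not reported here. Of the 7 transporters, 6 matched RefSeq's promoter table, and ABCB4 did not. No endothelial value was taken for PECAM1, whose identifier was not matched.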

Additional observations from a re-analysis of the deposited data

Results flagged for a closer look

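The difference in ABCB1 between ABCC1-overexpressing and control cells was not the same in the 3 experiments, by the test of that difference itself (adjusted p = 0.00178). The log2FC was 1.31 in the first, 0.07 in the second and 0.20 in the third experiment. With background counts subtracted, the difference between second and first was −1.11 in place of −1.33, and the adjusted p 0.615. No other transporter differed between experiments by this test in edgeR, where ABCB4 and ABCG2 had an unadjusted p under 0.05 (0.0228 and 0.0478).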

How the results depend on the processing

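In the first experiment 2 transporters were called, 1 with the spread shared by 18 libraries, and 2 to 3 when single libraries were left out (3 without ABCC1 replicate 3, with ABCB8 added). In the second experiment 0 were called, and 2 (ABCB4 and ABCG2) with DESeq2, limma-voom, RLE size factors, no low-count filter, a minimum of 10 counts per library, the replicate block or the spread shared by 18 libraries, and 0 to 2 when single libraries were left out. The adjusted p of ABCB4 ran from 0.00673 to 0.948 and that of ABCG2 from 0.00924 to 0.893 over the alternatives. In the third experiment 0 were called under each alternative run. The joint fit called 2, 1 with background counts subtracted, and 2 to 4 when single libraries were left out. The interaction was called for 1 transporter, 0 with background counts subtracted, and for 1 to 3 when single libraries were left out. No direction was reversed among called values. On its full exon length ABCB6 had 1.11 and 1.76 CPM per kilobase in the first experiment, in controls and ABCC1 libraries.

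Same-numbered libraries did not deviate together (correlations of −0.185 to 0.118 over the pairs), so the numbers were not taken to pair them. With the replicate block the transporters called were 2, 2, 0, 2 and 1 in the first, the second and the third experiment, the joint fit and the interaction.

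Of all genes, the first experiment gave 6382 calls, against 1975 with the shared spread. The second gave 581, against 1819 with DESeq2, 1299 with limma-voom, 1086 with RLE, 1402 without a filter, 709 with the replicate block, 5425 with the shared spread, 12 with the background covariate, 46 with background subtracted and 5 to 1359 with single libraries left out. The third gave 1021, against 1725 with the minimum of 10 counts per library, 1885 with the block, 1565 with the shared spread, 140 with the covariate and 394 to 2761 with single libraries left out. The joint fit gave 5751, against 3339 with background subtracted, and the interaction 551, against 1438 with limma-voom, 363 with at least 10 counts, 275 with background subtracted and 334 to 1113 with single libraries left out. The split of higher and lower calls moved in the third experiment from 741 and 280 to 966 and 199 with RLE and 924 and 144 with DESeq2. Lower calls became the majority in the joint fit with DESeq2 (3197 higher and 3656 lower, from 4033 and 1718) and, where every library needed 10 counts, in the joint fit (2239 and 2838) and the second experiment (350 and 438, from 425 and 156). They did so in the second experiment also without ABCC1 replicate 3 (593 and 766), with the shared spread (2314 and 3111) and with the covariate (5 and 7), in the third with the covariate (29 and 111), and in the interaction with limma-voom (716 and 722), with that minimum (138 and 225) and without ABCC1 replicate 3 of the second experiment (421 and 692). The causes were not tested. Depth of 8866994 to 13332413 pairs and background limit what the third experiment can show for low genes.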
